A study of Arabidopsis thaliana with 12 samples.

Results

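The 30 genes described here code for factors that act around the dicing of miRNA precursors in Arabidopsis thaliana. They were listed by name and gene ID from known factors and grouped by step. The rule uses no measured value, but the list was drawn up with earlier results of these data known. The list holds 2 cap-binding genes, 11 precursor factors, 6 transport factors, 5 turnover factors and 6 others. They are 30 of 33610 gene IDs in the mRNA tables, and all 30 passed a filter that asked for 1 FPKM or more on average over the libraries (fragments scaled to transcript length and to the fragments mapped in a library), as did 20743 genes in all.

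MIR genes are transcribed by RNA polymerase II into capped primary transcripts, and the nuclear enzyme DCL1, with the partners HYL1 and SERRATE, cuts the miRNA duplex from them. Other proteins bind the cap, bring the precursor to DCL1 or set the phosphorylation of HYL1. Carriers then move proteins and miRNAs between nucleus and cytoplasm. Each mature miRNA carries a methyl group at its 3′ end, and miRNAs that lack it are tailed with uridine by HESO1 and URT1, while SDN nucleases trim miRNAs from that end.

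The study compared plants with an artificial miRNA against SEAP1 (amiR-SEAP1, 4 mRNA libraries) with wild type (WT, 4 mRNA libraries), and the series text names miRNA accumulation as its question. All plants were of the Columbia ecotype, grew at 22 °C under a day of 16 h light and 8 h darkness, received no treatment and were sampled as inflorescences. The labels do not state the promoter of the artificial miRNA, the age of the plants or how many plants went into a library. The labels pair no gene ID with SEAP1, so the targeted gene was not analysed here.

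The column headers of the tables split the libraries into 2 sets, which the titles do not mention. Replicates 1 and 2 of each genotype carry FLW in the header and replicates 3 and 4 carry AI, and what these letters stand for is not given. The headers also name the amiR-SEAP1 libraries R15 in the FLW set and R155 in the AI set, and whether both are 1 transgenic line is not given. The 2 libraries of a genotype within a set differed little, with a spread of 0.0229 to 0.0247 (median-based SD, log2 scale, 7565 genes that averaged 20 FPKM or more). Between the sets the spread was 0.128 in amiR-SEAP1 and 0.167 in WT. Each pair was therefore averaged and counted as 1 value, so n = 2 sets per genotype in the main test and for SD values. Counts of genes without overlap, and the other fits named as such, use single libraries. FPKM summed to 680667 to 715611 per library, the read depth behind the values is unknown, and the p-values measure only the spread between these samples. All 6 flower markers, among them AP1 and SEP3, were detected in every library.

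The mRNAs of the factors were mostly higher in amiR-SEAP1 than in WT inflorescences, by small amounts. The log2 difference (amiR-SEAP1 minus WT, on log2(FPKM + 1)) was above 0 for 28 of the 30, with a median of 0.20, against 11432 of 20743 genes and a median of 0.03 over all genes tested. Within both sets, 20 of the 30 were higher in each amiR-SEAP1 library than in each WT library, and 0 were lower. Over all genes tested, 25.7% were higher and 19.9% lower in that way. With the sets pooled, 16 factors were higher in all 4 amiR-SEAP1 libraries than in all 4 WT libraries and 0 were lower, against 14.8% and 9.56% of all genes. No factor passed limma's test at an FDR of 0.05 (Benjamini-Hochberg adjustment), and neither did any of the 20743 genes, with smallest adjusted p-values of 0.271 among the factors and 0.269 among all genes. At an unadjusted limma p under 0.05, 8 factors were higher and 0 lower, against 6.95% higher and 7.16% lower of all genes. These 8 were CBP20, MAC7, SAD2, KETCH1, THO2, SDN2, SDN3 and AT3G06670.

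The test rests on 4 averaged values and 1 residual degree of freedom. When the 8 libraries entered limma singly, with header set as a term and a correlation estimated within pairs, 10 factors were called higher and 0 lower at the same FDR, against 7.44% and 7.59% of all genes. The 10 were the 8 above with URT1 and MTA. On simulated data, with a chosen spread between pairs equal for all genes, this fit called more unchanged genes than its FDR allows. Whether it does so in these data was not tested. Without the set term that fit called 0 factors, against 0.231% of all genes higher and 0.082% lower, and with 8 libraries taken as independent and no set term 12 factors were called higher and 0 lower, against 7.5% and 4.7%. A replicate block gave 16 and 0, against 13.7% and 11.1%. Those 16 were the 10 with HPR1, NOT2A, TGH, CPL1, DBR1 and EER5, with blocked limma adjusted p-values from 0.0041 for SDN3 to 0.0459 for EER5. These last fits count the 2 libraries of a pair as independent.

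**Figure D1:**
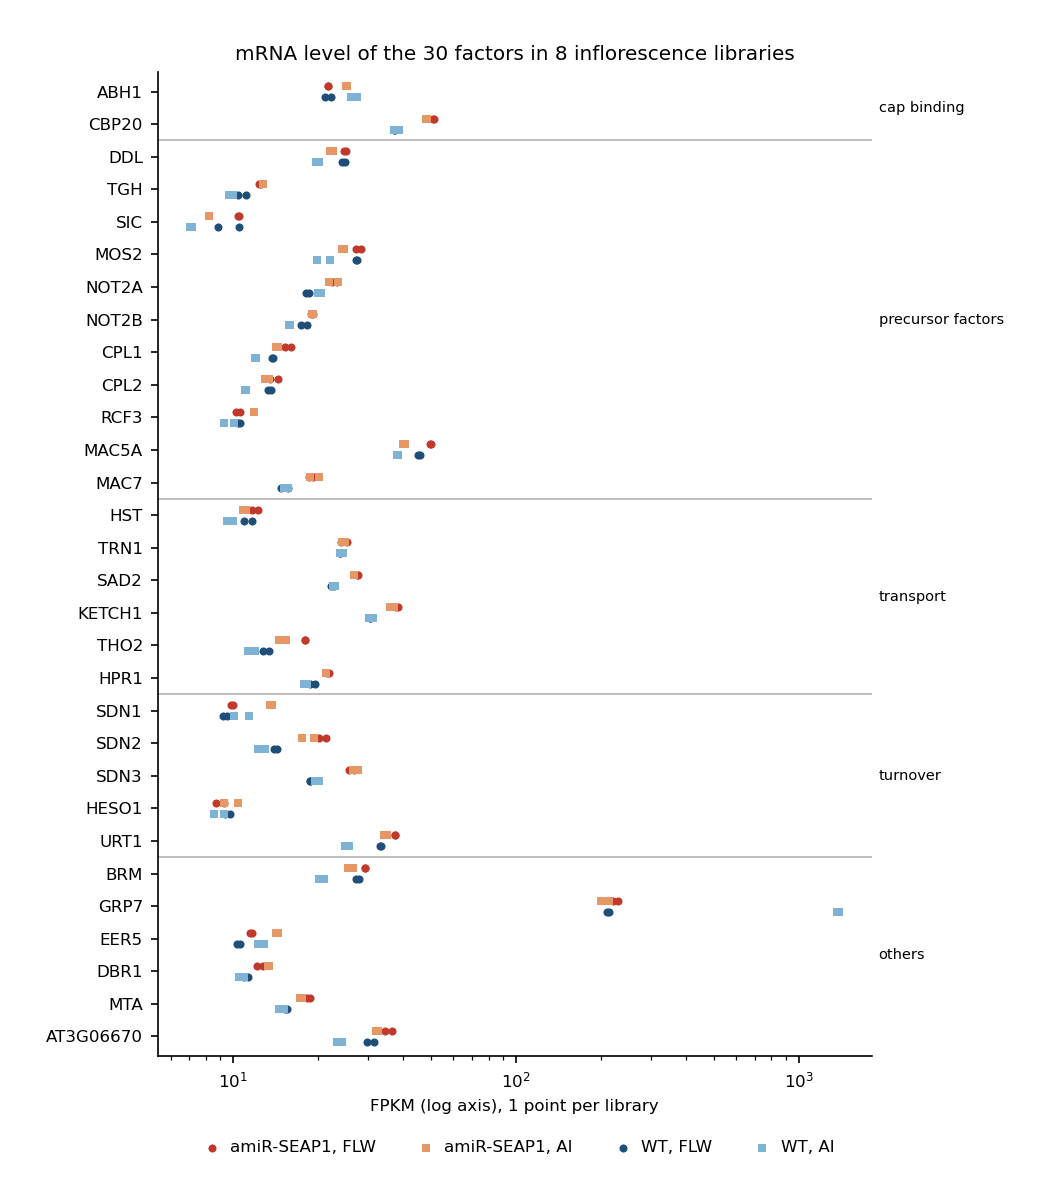
mRNA level in FPKM (log axis) of each of the 30 factors, with 1 point per library, colour for genotype and symbol for header set (circles FLW, squares AI). The 29 factors other than GRP7 sit between 7.03 and 51.3 FPKM, most with amiR-SEAP1 points to the right of WT points, and GRP7 in the WT AI libraries stands far to the right of all others.

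Levels per transcript length differed widely among the factors. Apart from GRP7, which had the highest mean of the 30, the highest were CBP20, MAC5A, KETCH1 and URT1. HESO1 and SIC had the lowest means, and every factor other than GRP7 stayed between 7.03 and 51.3 FPKM in every library. Without GRP7, the size of the genotype difference was only weakly related to the level across genes (r = 0.200, Spearman's rho = 0.247, n = 29). This is a description over genes, which share their libraries.

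The cap-binding complex has a small and a large subunit, and their values were unlike. CBP20 (AT5G44200), the small subunit that holds the cap, had 50.7, 51.3, 48.1 and 48.3 FPKM in amiR-SEAP1 replicates 1 to 4, against 37.3, 37.1, 36.9 and 38.6 FPKM in WT replicates 1 to 4. All 4 amiR-SEAP1 libraries were above all 4 WT libraries, and header set made little difference. CBP20 averaged 49.6 ± 2.03 FPKM in amiR-SEAP1 and 37.5 ± 0.378 FPKM in WT (SD, n = 2 sets each). The log2 difference was 0.39 ± 0.09 (SE; limma, adjusted p = 0.286).

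ABH1 (AT2G13540), the large subunit also called CBP80, had 21.6, 21.7, 25.1 and 25.2 FPKM in amiR-SEAP1, against 21.1, 22.1, 27.3 and 26.2 FPKM in WT. Its genotypes overlapped in the FLW set, and both were higher in the AI set. The log2 difference was -0.04 ± 0.09 (limma, adjusted p = 0.836), with a 95% interval of -0.29 to 0.21. The interval of ABH1 and that of CBP20, 0.14 to 0.65, overlap, and the difference between the subunits was not tested.

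Among the 11 precursor factors the log2 difference ran from 0.09 to 0.31, with a median of 0.15, and 6 of them were higher in amiR-SEAP1 without overlap in both sets, against 25.7% of all genes. MAC7 (AT2G38770), a helicase of the MOS4-associated complex that RefSeq lists as EMB2765, had 19.1, 18.6, 20.2 and 18.7 FPKM in amiR-SEAP1, against 14.7, 15.6, 15.6 and 15.1 FPKM in WT. Each amiR-SEAP1 library was above each WT library, with nearly the same difference in both sets. MAC7 averaged 19.1 ± 0.431 FPKM in amiR-SEAP1 and 15.2 ± 0.139 FPKM in WT, a log2 difference of 0.31 ± 0.09 (limma, adjusted p = 0.319). MAC5A (AT1G07360), an RNA-binding subunit of the same complex, differed by 0.11 ± 0.09.

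TGH (AT5G23080), a G-patch protein that binds miRNA precursors, had 12.3, 12.6, 12.7 and 12.7 FPKM in amiR-SEAP1, against 11.1, 10.4, 9.64 and 9.97 FPKM in WT. The genotypes did not overlap, and the wider gap was in the AI set. Its log2 difference was 0.27 ± 0.10 (limma, adjusted p = 0.369). NOT2A (AT1G07705) and NOT2B (AT5G59710), subunits of the CCR4-NOT complex that take part in MIR gene transcription, differed by 0.23 ± 0.09 and 0.17 ± 0.10.

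CPL1 (AT4G21670) and CPL2 (AT5G01270), phosphatases that act on HYL1, differed by 0.20 ± 0.09 and 0.14 ± 0.11. RCF3 (AT5G53060), a KH-domain protein that works with them, had 10.2, 10.6, 11.8 and 11.8 FPKM in amiR-SEAP1, against 10.4, 10.5, 9.30 and 10.03 FPKM in WT, a log2 difference of 0.13 ± 0.12. The genotypes of RCF3 overlapped in FLW and did not in AI. DDL (AT3G20550), which binds RNA and DCL1, differed by 0.09 ± 0.09, MOS2 (AT1G33520), an RNA-binding protein that helps recruit precursors to the dicing complex, by 0.13 ± 0.10, and SIC (AT4G24500), a proline-rich partner of HYL1, by 0.15 ± 0.11.

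The 6 transport factors had a median log2 difference of 0.23 in each set, and 4 of them were higher in amiR-SEAP1 without overlap in both sets, against 25.7% of all genes. THO2 (AT1G24706), a subunit of the THO complex, which couples transcription to mRNA export, had 17.9, 17.9, 15.4 and 14.5 FPKM in amiR-SEAP1, against 12.8, 13.4, 11.9 and 11.2 FPKM in WT. All amiR-SEAP1 libraries were above all WT libraries, and in both genotypes the AI libraries were lower than the FLW libraries. THO2 averaged 16.4 ± 2.11 FPKM in amiR-SEAP1 and 12.3 ± 1.07 FPKM in WT, with a log2 difference of 0.38 ± 0.10 (limma, adjusted p = 0.296). HPR1 (AT5G09860), another THO subunit, differed by 0.20 ± 0.09.

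KETCH1 (AT5G19820), an importin that carries HYL1 into the nucleus, had 38.1, 37.5, 37.2 and 35.9 FPKM in amiR-SEAP1, against 30.4, 30.6, 30.1 and 31.2 FPKM in WT. The genotypes stood well apart, and the WT libraries were nearly equal. KETCH1 averaged 37.2 ± 0.933 FPKM in amiR-SEAP1 and 30.6 ± 0.114 FPKM in WT, with a log2 difference of 0.27 ± 0.09 (limma, adjusted p = 0.332). SAD2 (AT2G31660), an importin that limits miRNA loading into AGO1, differed by 0.26 ± 0.09 (limma, adjusted p = 0.344).

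The remaining carriers differed less. HST (AT3G05040), the plant counterpart of exportin-5, differed by 0.11 ± 0.10. TRN1 (AT2G16950), a transportin that promotes AGO1 loading, had the smallest difference of the 6 at 0.04 ± 0.09, with a 95% interval of -0.21 to 0.28.

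The turnover genes had the highest median of the 5 groups, at 0.30, and held the 2 factors with the largest differences above 0. SDN2 (AT5G05540), one of the nucleases that degrade mature miRNAs from the 3′ end, had 20.1, 21.2, 17.6 and 19.4 FPKM in amiR-SEAP1, against 14.3, 14.0, 12.9 and 12.2 FPKM in WT. Each amiR-SEAP1 library was above every WT library, and the log2 difference was 0.52 in each set. SDN2 averaged 19.6 ± 1.58 FPKM in amiR-SEAP1 and 13.3 ± 1.11 FPKM in WT, 1.47 times the WT level. The log2 difference was 0.52 ± 0.09 (limma, adjusted p = 0.271).

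SDN3 (AT5G67240), a nuclease of the same family, had 25.7, 26.6, 27.7 and 26.6 FPKM in amiR-SEAP1, against 18.6, 18.6, 19.4 and 20.1 FPKM in WT. Again no library of one genotype reached the range of the other. SDN3 averaged 26.7 ± 0.687 FPKM in amiR-SEAP1 and 19.2 ± 0.818 FPKM in WT, 1.39 times the WT level, with a log2 difference of 0.45 ± 0.09 (limma, adjusted p = 0.272). SDN1 (AT3G50100) of this family differed by 0.20 ± 0.12, by 0.33 in the AI set and by 0.07 in the FLW set.

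Of the uridylyltransferases, URT1 (AT2G45620) differed by 0.30 ± 0.11 (limma, adjusted p = 0.359). Its difference was 0.44 in the AI set and 0.16 in the FLW set, with no overlap in either. HESO1 (AT2G39740), the main enzyme that tails unmethylated miRNAs, differed by 0.03 ± 0.11, with a 95% interval of -0.29 to 0.34. Its log2 difference was 0.12 in the AI set and -0.07 in the FLW set. The sign of HESO1 also turned under 3 other settings, given with the processing alternatives.

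In the group of other factors, 5 of the 6 were higher in amiR-SEAP1 without overlap in both sets, against 25.7% of all genes. AT3G06670, which the reference table does not name, had 34.4, 36.5, 32.1 and 32.5 FPKM in amiR-SEAP1, against 31.4, 29.7, 23.3 and 24.2 FPKM in WT. The 4 amiR-SEAP1 libraries were above the 4 WT libraries, with the lowest values in the WT AI libraries. AT3G06670 averaged 33.9 ± 2.26 FPKM in amiR-SEAP1 and 27.2 ± 4.83 FPKM in WT, with a log2 difference of 0.32 ± 0.10 (limma, adjusted p = 0.334).

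MTA (AT4G10760), the catalytic subunit that writes m6A, had 18.2, 18.7, 17.5 and 17.2 FPKM in amiR-SEAP1, against 15.5, 15.3, 14.5 and 15.2 FPKM in WT. These values did not overlap, and MTA differed little between the sets. Its log2 difference was 0.23 ± 0.09 (limma, adjusted p = 0.369). BRM (AT2G46020), the ATPase of a SWI/SNF chromatin remodeller, differed by 0.21 ± 0.11, DBR1 (AT4G31770), which opens intron lariats, by 0.22 ± 0.10, and EER5 (AT2G19560), a protein related to the yeast mRNA export factor Thp1, by 0.15 ± 0.10.

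**Figure D2:**
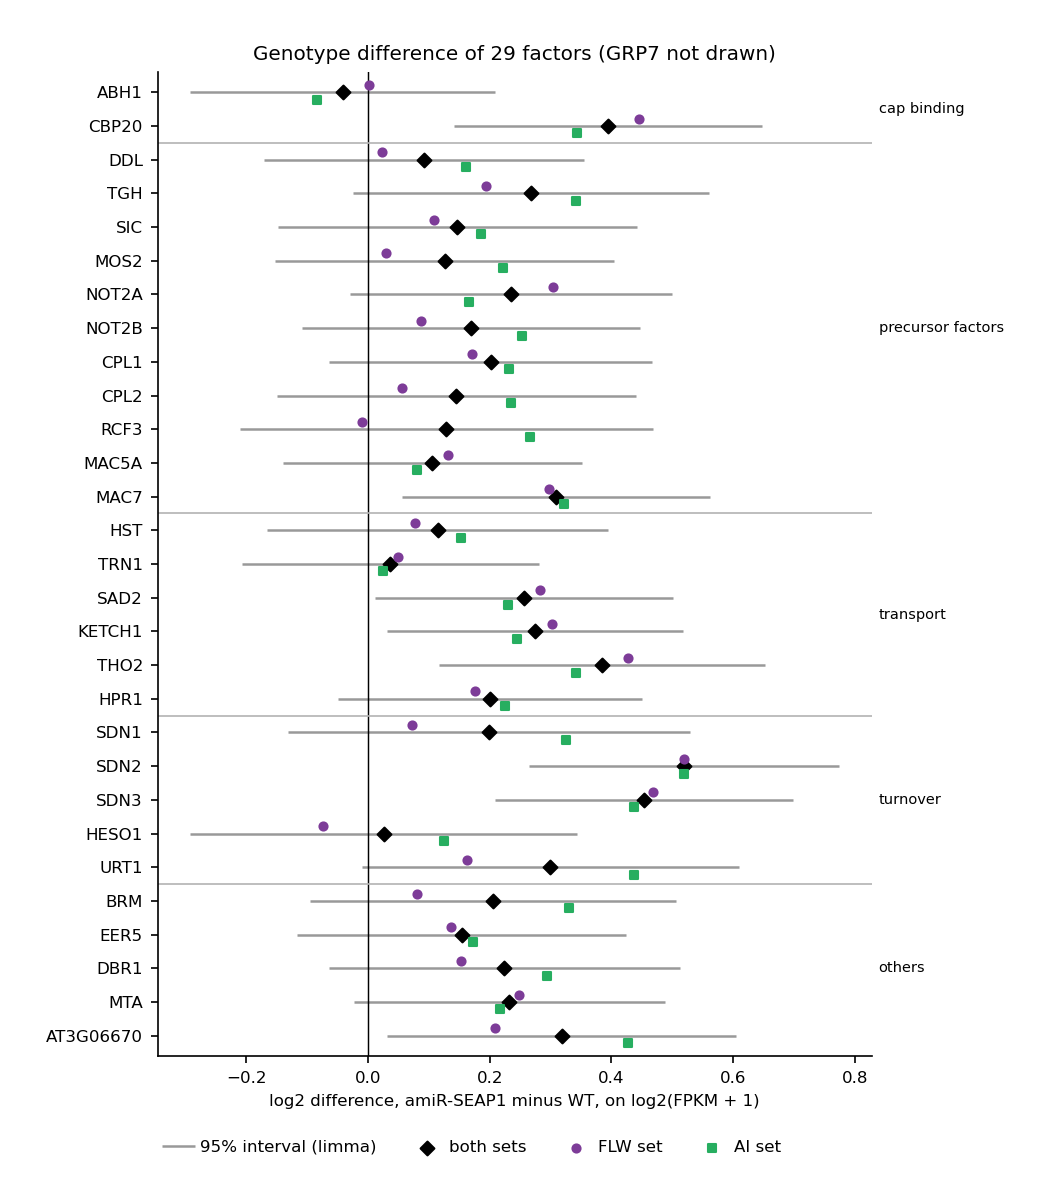
log2 difference (amiR-SEAP1 minus WT, on log2(FPKM + 1)) of 29 factors, as the limma estimate over both sets with its 95% interval (diamonds and lines) and within the FLW (circles) and AI (squares) sets. SDN2 at 0.52 and SDN3 at 0.45 lie farthest to the right and ABH1 at -0.04 lies left of 0, while GRP7 is not drawn because its AI value of -2.73 lies far outside the axis.

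By header set, the genotype difference was above 0 in both AI and FLW for 26 of the 30 factors, against 36.7% of all genes. It was below 0 in both sets for 0 factors, against 28.9% of all genes. Its median was 0.23 in AI and 0.14 in FLW, against 0.06 in AI and -0.003 in FLW over all genes. In 18 factors the AI value was the larger, against 57.3% of all genes. The precursor factors had medians of 0.23 in AI and 0.11 in FLW, the turnover genes 0.44 and 0.16, and the other factors 0.26 and 0.14. For the cap-binding pair the order was the reverse, at 0.13 in AI and 0.22 in FLW. With 1 averaged value per genotype and set, no difference between the sets in the genotype difference was tested.

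Across the 29 factors without GRP7, the FLW and AI differences were related with r = 0.610 and Spearman's rho = 0.568, and with GRP7 r was 0.242 and rho 0.556. Over all genes tested r was 0.334 and rho 0.381. The points share their libraries, so these values are descriptions.

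**Figure D3:**
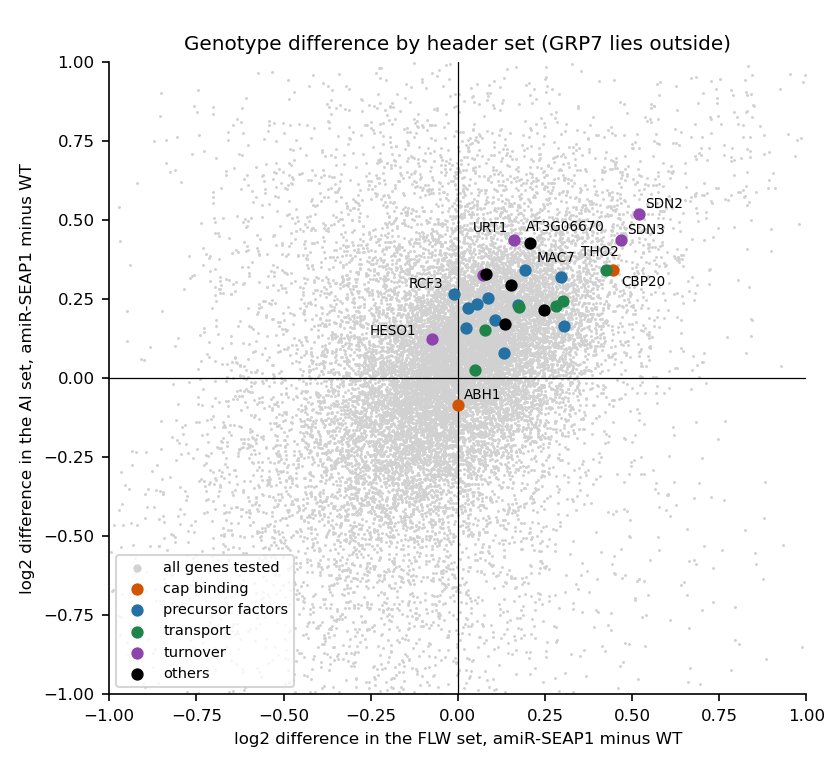
log2 difference (amiR-SEAP1 minus WT) in the AI set against that in the FLW set, for all genes tested (grey) and for 29 factors coloured by step. The axes are limited to -1 to 1, which leaves 822 genes, GRP7 among them, outside. The factors gather in the upper right part, with SDN2 at 0.52 on both axes.

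GRP7 (AT2G21660), a clock-controlled glycine-rich RNA-binding protein that affects precursor processing, had the highest level of the 30 and the largest negative difference. The other factor with a difference below 0 was ABH1. GRP7 had 230.3, 221, 213 and 199.8 FPKM in amiR-SEAP1, against 211, 214, 1365 and 1389 FPKM in WT. The WT AI libraries stood far above the other 6, which lay close together. The log2 difference was -2.73 in the AI set and 0.09 in the FLW set, and over both it was -1.32 ± 0.73 (limma, adjusted p = 0.455). Within WT the AI level was 6.49 times the FLW level, and within amiR-SEAP1 it was 0.916 times the FLW level. Of all genes tested, 23 (0.111%) had a gap between the sets' genotype differences at least as far below 0 as the -2.82 of GRP7.

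Clock genes also stood apart in the libraries where GRP7 did. In the WT AI libraries, 8 of 11 genes of a clock list were higher than in the other 6 libraries and 3 were lower. Over all genes, 17.2% were higher and 26.9% lower in that way. The list was added after the values were seen, and its 8 higher genes include GRP8 (AT4G39260), of the same gene family as GRP7. The morning gene LHY had 42.3, 43.7, 39.4 and 41.7 FPKM in amiR-SEAP1, against 42.9, 42.2, 5.44 and 4.87 FPKM in WT. The later-phased PRR5 had 3.81, 3.82, 3.80 and 3.83 FPKM in amiR-SEAP1, against 4.53, 4.49, 40.3 and 40.0 FPKM in WT. The labels do not state the hour of harvest, and its part in these differences was not tested.

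**Figure D4:**
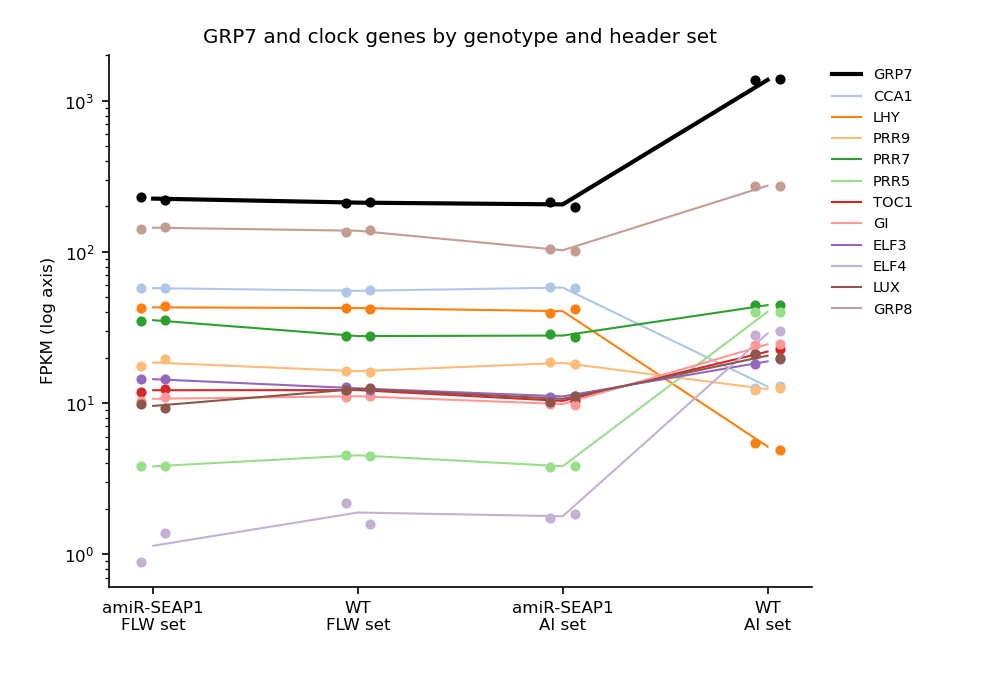
FPKM (log axis) of GRP7 and the 11 genes of the clock list, GRP8 among them, by genotype and header set. Each library is 1 point, and lines run through the pair means. Values of amiR-SEAP1 in both sets and of WT in the FLW set lie close together for most genes, while in the WT AI libraries GRP7 reaches 1365 and 1389 FPKM, PRR5 is higher, and CCA1 and LHY are lower.

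The WT AI libraries were also set against the other 6 for all 30 factors. In them 17 of the 30 factors were lower than in each of the other 6 libraries and 2, ABH1 and GRP7, were higher. Over all genes, 26.9% were lower and 17.2% higher in that way. Of the 30, 14 were lower in each AI library than in each FLW library in both genotypes, against 27.7% of all genes. The FLW set does not contain the WT AI libraries. In it, 22 factors were higher in each amiR-SEAP1 library than in each WT library, against 37.4% of all genes. In the same set 1 factor, HESO1, was lower, against 38.2%. In the AI set alone 27 factors were higher and 2, ABH1 and GRP7, were lower, against 48.7% and 33.8%.

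Between the sets (AI minus FLW, over both genotypes), the factors had a median log2 difference of -0.05 with 19 of 30 below 0, close to the median of -0.02 with 11091 of 20743 below 0 over all genes. No gene passed the limma test of the set term, with a smallest adjusted p of 0.0623. At an unadjusted p under 0.05, SIC and MAC5A were lower and 0 factors were higher, against 11.4% lower and 9.37% higher of all genes. SIC differed by -0.35 ± 0.11 (limma, adjusted p = 0.203) and MAC5A by -0.27 ± 0.09 (limma, adjusted p = 0.218). MAC5A had 40.0 and 40.7 FPKM in AI and 49.5 and 50.1 FPKM in FLW in amiR-SEAP1. In WT it had 38.3 and 37.8 FPKM in AI and 45.1 and 45.7 FPKM in FLW, so the sets did not overlap in either genotype.

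In both genotypes, 14 factors were lower in each AI library than in each FLW library and 3, ABH1, SDN1 and EER5, were higher, against 27.7% and 23.4% of all genes. With the 8 libraries entered singly and a correlation within pairs, 6 factors were called lower (DDL, SIC, MOS2, MAC5A, URT1 and BRM) and 2 higher (ABH1 and EER5) at an FDR of 0.05, against 13.5% and 11.8% of all genes.

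The other genes of the pathway, 34 in 7 lists, were also mostly higher in amiR-SEAP1. Of the 34, 33 had a log2 difference above 0, with a median of 0.17, 0 passed the FDR, and 4 were higher and 0 lower at an unadjusted limma p under 0.05. Over all genes tested these were 11432 of 20743 above 0, 6.95% higher and 7.16% lower. In both sets 21 of the 34 were higher without overlap and 0 were lower, against 25.7% and 19.9% of all genes. In the dicing core of 5 genes the median was 0.12, and the gene with the smallest p, SERRATE, differed by 0.16 ± 0.09 (limma, adjusted p = 0.450). The 8 further genes of the MOS4-associated complex had a median of 0.19, and MAC3B, a ubiquitin ligase subunit, differed by 0.37 ± 0.12 (limma, adjusted p = 0.336). It had 82.4 ± 2.65 FPKM in amiR-SEAP1 and 63.9 ± 7.37 FPKM in WT.

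For the 6 further THO genes the median was 0.11, and AT5G16790 (THO7A) differed by 0.42 ± 0.15 (limma, adjusted p = 0.348). The 4 further m6A writer genes had a median of 0.09, and EMB2016 differed by 0.24 ± 0.10 (limma, adjusted p = 0.378). Among 6 transcription genes the median was 0.24, and NRPB2, a subunit of RNA polymerase II, differed by 0.27 ± 0.09 (limma, adjusted p = 0.344). In the pair of PP4 phosphatase genes the median was 0.27, and PPX1, a catalytic subunit, differed by 0.32 ± 0.11 (limma, adjusted p = 0.354). The 3 genes for 5′ to 3′ exonucleases had a median of 0.05, and XRN2, which works in the nucleus, differed by 0.31 ± 0.09 (limma, adjusted p = 0.310).

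Markers of cell types of the flower differed between the genotypes in the same libraries. All 11 mature pollen markers were lower in amiR-SEAP1 in both sets without overlap, against 19.9% of all genes, with a median log2 difference of -0.42. At an unadjusted limma p under 0.05, 8 of them were lower, against 7.16% of all genes. Their summed level was 1253 to 1381 FPKM in amiR-SEAP1 and 1484 to 1991 FPKM in WT, and none was at 0. The summed level of the 29 factors without GRP7 was 620 to 653 FPKM in amiR-SEAP1 and 518 to 568 FPKM in WT. FPKM are shares of a library, and in whole inflorescences fewer cells of a type and less RNA per cell cannot be told apart. The part of the pollen difference in the factors' values was not tested.

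Tapetum markers went opposite ways in the sets. In AI all 10 tested were higher in amiR-SEAP1 without overlap, against 48.7% of all genes, with a median log2 difference of 0.79. In FLW 9 of them were lower without overlap, against 38.2% of all genes, with a median of -0.40. All 11 listed tapetum markers, with DYT1, which did not pass the filter, summed to 430 to 670 FPKM in amiR-SEAP1 and 393 to 547 FPKM in WT. The median of the factors was above 0 in both sets, at 0.23 in AI and 0.14 in FLW. The part of the tapetum difference in the factors' values was not tested. The 6 flower markers summed to 714 to 723 FPKM in amiR-SEAP1 and 727 to 734 FPKM in WT in AI, and to 527 FPKM in amiR-SEAP1 and 654 to 659 FPKM in WT in FLW. In FLW 5 of the 6 were lower in amiR-SEAP1 without overlap, against 38.2% of all genes, with a median log2 difference of -0.29. In AI 4 were higher and 2 lower without overlap, against 48.7% and 33.8% of all genes, with a median of 0.03. Green tissue markers summed to 19009 to 21161 FPKM in amiR-SEAP1 and 18009 to 20171 FPKM in WT. Of the 12, 10 had a difference above 0, with a median of 0.08, against 11432 of 20743 genes and a median of 0.03.

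**Figure D5:**
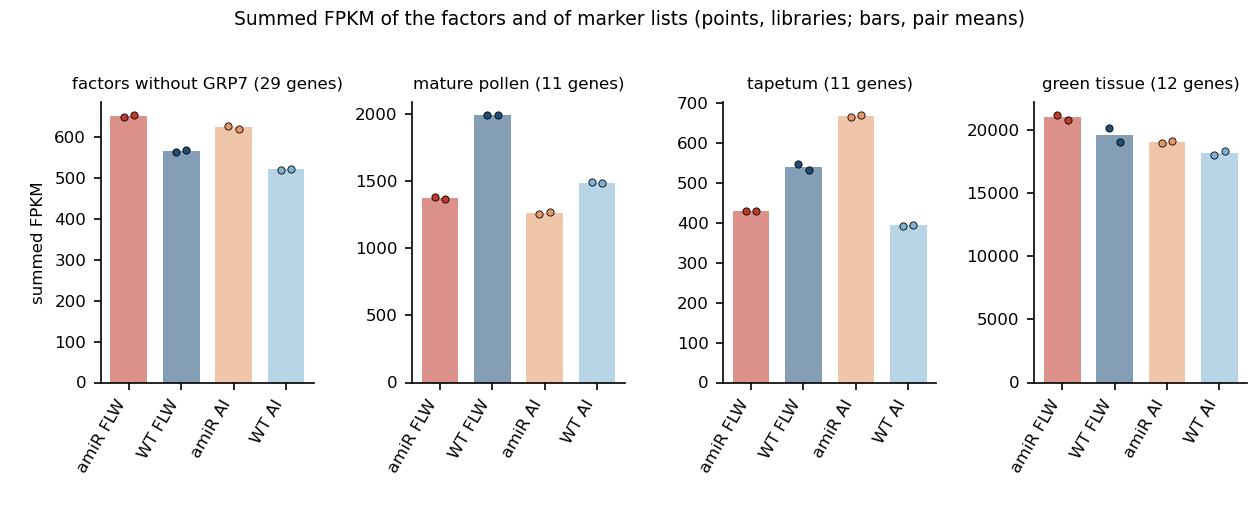
Summed FPKM of the 29 factors without GRP7 and of 3 marker lists, with 1 point per library and bars for the pair means of each genotype and set. The factors are higher and the pollen markers lower in amiR-SEAP1 (amiR on the axis) in both sets, and the tapetum markers are higher in AI and lower in FLW.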

How the data were processed

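The authors computed an FPKM value for every gene in each mRNA library, per the file headers, and deposited 1 table per library. HISAT2 and TAIR10, without versions, appear in the submitters' processing notes. Which program, annotation and strand setting gave the FPKM is not given in the sources used here. TGH, NOT2A, CPL1, RCF3, SDN1, SDN3, HESO1, BRM, MTA and PPX1 overlap another gene in the RefSeq table (TAIR10.1), so reads of neighbours may be shared, and reads shared by paralogues such as CPL1 and CPL2 could not be checked. Of 33610 IDs, 28932 matched that table. Small RNA tables were not used here.

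Genotype and replicate came from the titles and header set from the column headers. The labels do not say whether replicates are separate plants. Values were taken as log2(FPKM + 1), and genes averaging 1 FPKM or more were kept. Such differences understate changes of low genes. The 2 libraries of a genotype and set were averaged, and limma 3.58.1 (R 4.3.3) with a mean-variance trend was fitted with genotype and header set as terms, with Benjamini-Hochberg adjustment over 20743 genes and an FDR of 0.05. The fit with averaged pairs and the fit with a correlation within pairs were both run on simulated data. There the spread between pairs was chosen and equal for all genes, so it need not match that of these data. SD values are over the 2 pair means.

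Deviations from the group mean correlated at 0.398 to 0.430 between libraries of the 2 genotypes with the same replicate number. Within a set, the differences between the 2 libraries correlated at 0.027 (AI) and -0.005 (FLW) across the genotypes. The correlation is thus that of the sets, and the replicate numbers pair no libraries beyond that. Results with a replicate block are given beside the main ones, and that fit counts the 2 libraries of a pair as independent.

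The factors and lists were chosen with earlier results of these data known, and the clock list after its values were seen. Values in every library are given for the 2 factors of each step with the smallest p. GRP7, RCF3, MAC5A, LHY and PRR5 are shown as well, chosen after their values were seen. From each further list the gene with the smallest p is named. Alternatives changed the pseudocount, filter, scaling, treatment of pairs and sets, replicate block and libraries included.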

Additional observations from a re-analysis of the deposited data

Results flagged for a closer look

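In WT, TRN1 in replicate 4, at 24.4 FPKM, stood apart from replicates 1 to 3, which lay at 23.8 FPKM each, with a gap of 0.970 of the whole range of the 4 libraries. The range itself is narrow, and chance puts about 1 in 20 groups of any gene past the limit used, which is below this gap.

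For HESO1 the log2 difference (amiR-SEAP1 minus WT) was 0.124 in the AI set and -0.074 in the FLW set. For GRP7 it was -2.732 in the AI set and 0.088 in the FLW set. In both genes the sets moved in opposite directions, and the difference between the sets was not tested.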

How the results depend on the processing

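Which libraries count as replicates decided the number of calls. At an FDR of 0.05, genes higher and lower in amiR-SEAP1 numbered 0 and 0 with averaged pairs, 48 and 17 with a correlation within pairs and no set term, 1543 and 1575 with that correlation and set, 1556 and 975 with 8 independent libraries, and 4676 and 3786 with set added. Factors called higher numbered 0, 0, 10, 12 and 21 in these fits, and 0 were called lower. A replicate block gave 2852 genes higher and 2306 lower, and 16 factors higher and 0 lower. Only 2 of the 4 numbers correlated best with their own number. Leaving out 1 library gave 0 to 1 genes higher and 0 to 0 lower, and 0 factors.

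For the set term, genes higher and lower in AI numbered 4646 and 5451 with 8 independent libraries, 2444 and 2791 with pair correlation, 27 and 180 with a filter of 5 FPKM on the mean, 15 and 156 with equal FPKM sums, and 0 to 15 and 0 to 127 when 1 library was left out. Factors numbered 3 higher and 12 lower, and 2 higher and 6 lower, in the fits with 8 independent libraries and with pair correlation.

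At an unadjusted p under 0.05, the 8 factors higher in amiR-SEAP1 (6.95% of all genes) became 16 with 8 libraries (17.4%), 25 with set added (28.3%), 17 with pair correlation and set (16.3%), 3 with averaged pairs and no set term (3.34%), 22 with the replicate block (22.9%), 5 without the trend (6.53%) and 7 to 9 with 1 library left out (6.76% to 7.08%). The 0 lower (7.16%) became 1 with 8 libraries and set (22.7%) and 1 with pair correlation and set (14.6%). The 20 factors without overlap in both sets (25.7%) became 20 to 24 with 1 library left out (26.9% to 29%). The log2 difference of HESO1 turned to -0.0020 with quantile scaling and ranged from -0.0103 to 0.0611 when 1 library was left out (-0.0103 without amiR-SEAP1 replicate 3, -0.0011 without WT replicate 4), and the cause was not tested.

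Depth is unknown, so counting error could not be given. The read-level overlap of genes was not checked.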
